A study of Danio rerio with 8 samples.

Results

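Long intergenic noncoding RNA (lincRNA) genes were examined in small RNA libraries of zebrafish larvae at 7 days postfertilization (dpf). The 62 genes were selected on 2 properties of the deposited count table, the biotype lincRNA and a summed count of at least 10 over the 8 libraries. They are 62 of the 1493 lincRNA rows (4.15%) and of the 32520 rows of the table. The class was taken up because its share of the counts was already known to be lower in larvae of stressed fathers, so that share and all differences between the groups are given here as a description. The S+ libraries (n = 4) came from larvae of AB wild-type males that had been stressed for 21 days and then crossed with undisturbed females, and the S- libraries (n = 4) from larvae of undisturbed males of the same strain crossed with such females. No larva was itself stressed, each library was made from pooled whole larvae of 1 crossing, and the genotype of all was WT. Library totals were 3492945 to 4943297 counts in S+ and 3527034 to 4301348 counts in S-. The marker microRNAs of liver, muscle, neurons, neural progenitors, red blood cells, pancreas and skin had counts in every library, so the tissues of a whole larva were represented.

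LincRNAs are long transcripts that are made and often spliced like mRNAs, carry no long open reading frame and lie between protein-coding genes. Some act in the nucleus, as malat1 does in mammals, where it sits in nuclear speckles and affects splicing. Others act in the cytoplasm, and some are the precursors from which microRNAs are cut. A small RNA library captures short molecules, so a count of a lincRNA gene is here a count of short fragments and not of whole transcripts. In pooled whole larvae, fewer cells of a type and less RNA per cell cannot be told apart. The files give no transcript lengths, and the values of different genes are therefore compared below only as shares of counts.

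The share of counts held by the 62 genes was carried almost entirely by 1 of them. CT027638.1 (ENSDARG00000096403, si:dkey-153m14.1 in the gene name table), an uncharacterised lincRNA, held 73885 of their 78518 counts (94.1%). CR383676.2 (ENSDARG00000099970), which the gene name table pairs with malat1, followed with 1491 counts (1.90%), and BX001023.2 (ENSDARG00000101163, si:ch211-233f10.7) with 1188 counts (1.51%). Together these 3 genes made up 97.5% of the lincRNA counts, and they were the first 3 in each of the 8 libraries. The other 59 genes shared 1954 counts. The median gene had 16 counts over all libraries, 36 genes had fewer than 20, and 7 had at least 100.

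**Figure D1:**
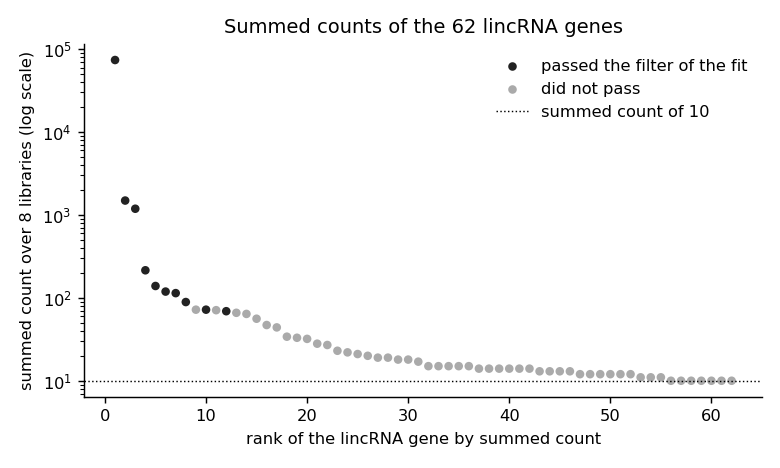
Summed count over the 8 libraries (log axis) against rank for the 62 lincRNA genes. CT027638.1 stands at 73885 counts, malat1 and BX001023.2 at 1491 and 1188, and the rest at 215 or fewer; black points are the 10 genes that passed the filter of the group comparison.

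At the lower limit of the selection, 7 genes had a summed count of exactly 10, while 8 lincRNA rows just outside had 9. The 456 lincRNA rows with 1 to 9 counts held 1142 counts in all, 1.43% of the counts of the class, and 975 rows had none. With all lincRNA rows taken in, the mean share was 0.0916% in S+ and 0.401% in S-.

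The 62 genes held 0.0931%, 0.0704%, 0.0630% and 0.125% of all counts in libraries S+ 1 to S+ 4, and 0.144%, 0.909%, 0.441% and 0.0980% in libraries S- 1 to S- 4. The mean share was 0.0879% ± 0.0279 in S+ and 0.398% ± 0.373 in S- (SD, n = 4 each), which is 4.53-fold lower in S+. Exact 95% binomial intervals (Clopper-Pearson) were narrow, from 0.900% to 0.918% in S- 2 and from 0.0607% to 0.0654% in S+ 3, and cover counting error only. The groups overlapped, since S- 4 lay below S+ 4. Libraries S- 2 and S- 3 stood far above the other 6, which ranged from 0.0630% to 0.144%. With S- 2 alone left out, the mean share was 0.0879% in S+ and 0.228% in S-. Without both libraries the mean share was 0.0879% in S+ and 0.121% in S-, a 1.38-fold difference. A lower lincRNA share in S+ larvae thus describes the group means. Of the other 2 S- libraries, S- 1 lay just above the S+ range and S- 4 within it.

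**Figure D2:**
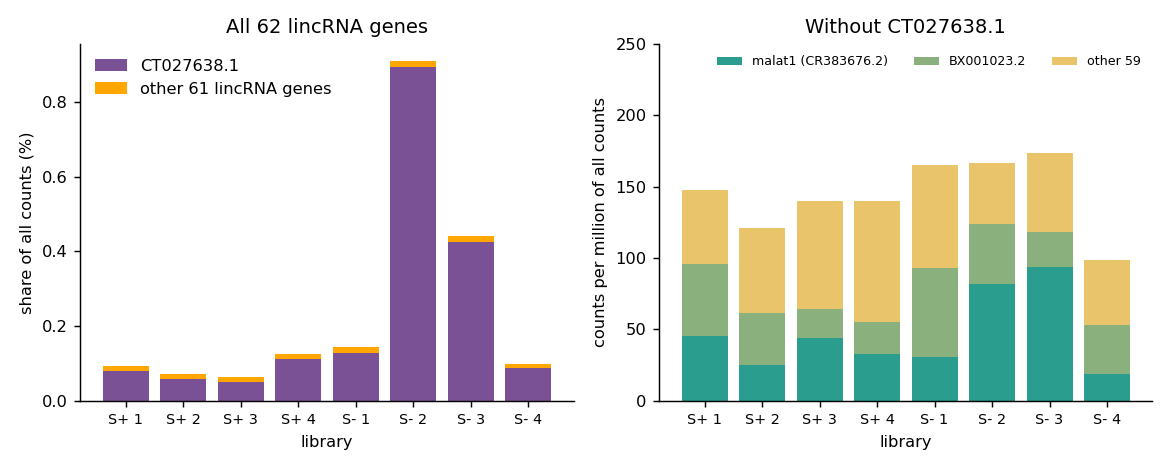
Left, share of all counts (%) held by CT027638.1 and by the other 61 lincRNA genes in each library; right, counts scaled to the library total (CPM without TMM factors, the edgeR scaling factors) for malat1, BX001023.2 and the other 59 genes, without CT027638.1. Of the tall bars of S- 2 and S- 3, CT027638.1 makes up 0.893% and 0.423% of all counts, and the remaining genes reached 98.4 to 173 CPM without TMM factors in every library.

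CT027638.1 had 3147, 2883, 2192 and 3881 counts in the S+ libraries, against 4921, 38391, 15361 and 3109 counts in the S- libraries. Of all its counts, 72.8% came from S- 2 and S- 3. Scaled to the library sizes with TMM factors (CPM), it stood at 777, 692, 422 and 1130 CPM in S+ 1 to 4, and at 1346, 8489, 3907 and 951 CPM in S- 1 to 4. S- 2 was 9.82-fold and S- 3 was 4.52-fold above the median of the other 6 libraries, which lay between 422 and 1346 CPM. S+ 4 exceeded S- 4, so the groups overlapped for this gene as well. The mean level was 755 ± 292 CPM in S+ and 3673 ± 3467 CPM in S- (SD, n = 4 each). Its fitted log2 fold change was -1.86 (standard error 0.627) with all libraries, and -0.73 (standard error 0.346) without S- 2 and S- 3.

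Within single libraries, CT027638.1 held 77.8% to 88.8% of the lincRNA counts in S+ and 88.5% to 98.2% in S-. It accounted for 99.6% of the difference in mean share between the groups. The other 61 genes together held 0.0147%, 0.0121%, 0.0140% and 0.0140% of all counts in S+, against 0.0165%, 0.0167%, 0.0173% and 0.00984% in S-. Their mean share was 0.0137% ± 0.00114 in S+ and 0.0151% ± 0.00352 in S- (SD, n = 4 each), a difference smaller than the spread among the S- libraries. By share of all counts, S- 4 was the lowest of all libraries and the other S- libraries were the 3 highest. As a percentage of counts outside miRNA genes, the means ran the other way. They were 0.559% ± 0.0470 in S+ and 0.528% ± 0.127 in S- (SD, n = 4 each). The counts outside miRNA genes still include CT027638.1, which held 0.893% and 0.423% of all counts in S- 2 and S- 3. Nothing is therefore read from this change of direction. When the 5 genes with the most counts were left out, the share of the remaining genes was 0.00569% in S+ and 0.00425% in S-. The 59 genes behind the first 3 reached 51.8, 59.1, 75.3 and 84.7 CPM without TMM factors in S+, against 71.8, 42.8, 55.4 and 45.1 in S-. Their groups overlapped, and the means of 67.7 ± 15.01 in S+ and 53.8 ± 13.2 in S- (SD, n = 4 each) ran opposite to that of CT027638.1.

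Malat1 (CR383676.2), the second gene by counts, had 182, 123, 195 and 114 counts in S+ and 118, 353, 341 and 65 in S-. Its mean level was 36.3 ± 6.62 CPM in S+ and 54.2 ± 33.1 CPM in S- (SD, n = 4 each). S- 2 and S- 3, at 78.1 and 86.7 CPM, were again the highest libraries, whereas S- 4 was the lowest of all 8, at 19.9 CPM. The fitted log2 fold change was -0.39 (standard error 0.443). It changed sign to 0.44 (standard error 0.30) when S- 2 and S- 3 were left out.

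BX001023.2, which is uncharacterised, had 202, 182, 94 and 78 counts in S+ and 242, 180, 87 and 123 in S-. Its mean was 33.6 ± 15.6 CPM in S+ and 41.4 ± 18.3 CPM in S- (SD, n = 4 each), with overlapping groups. S- 2 and S- 3 were not raised for this gene, at 39.8 and 22.1 CPM, while S- 1 was highest at 66.2 CPM.

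The next genes by counts had far fewer reads, and most of them are known by clone-derived names alone. CR361564.1 (si:dkey-87o1.3) had 23, 31, 28 and 60 counts in S+ and 19, 19, 12 and 23 in S-. Its mean was 9.0 ± 5.72 CPM in S+ and 4.87 ± 1.69 CPM in S- (SD, n = 4 each), and the S+ spread came from S+ 4. CU019562.2 (si:dkey-6d5.5) had 0, 34, 5 and 0 counts in S+ and 51, 23, 12 and 14 in S-. It was absent from 2 S+ libraries at a depth where 3 counts correspond to 0.747 and 0.859 CPM without TMM factors, and S+ 2 lay above 3 of the 4 S- libraries. FP565451.1 (si:zfos-754c12.1) had 22, 17, 43 and 6 counts in S+ and 11, 7, 9 and 4 in S-, so that 3 S+ libraries lay above every S- library and S+ 4 did not. BX470185.1 (si:ch211-222d3.3) had 0, 17, 40 and 17 counts in S+ and 16, 0, 20 and 4 in S-, with a library at 0 in each group. CR848047.1 (si:dkey-235h8.1) had 12, 11, 18 and 15 counts in S+ and 11, 3, 11 and 8 in S-.

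CR786571.3 (si:dkey-234l24.10p) had 15, 13, 10 and 11 counts in S+ and 3, 7, 7 and 6 in S-. Its mean was 2.99 ± 0.755 CPM in S+ and 1.5 ± 0.467 CPM in S- (SD, n = 4 each). It was the 1 gene of the 62 whose S+ libraries all lay above all S- libraries, whereas no gene had all S+ libraries below all S- libraries. Among the 3841 genes of the table with a summed count of at least 10, the corresponding shares were 3.1% above and 1.35% below. CR786571.3 did not pass the filter on low counts.

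**Figure D3:**
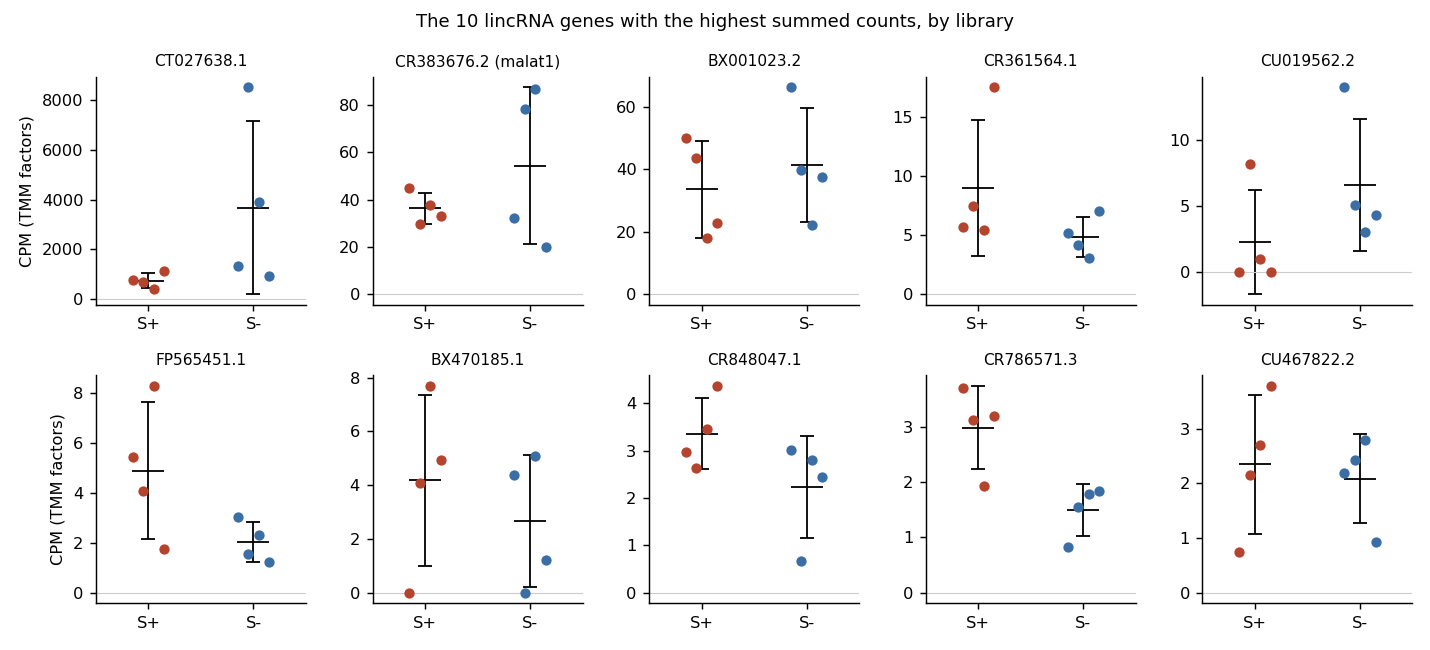
CPM with TMM factors in each library for the 10 lincRNA genes with the highest summed counts; points are libraries (n = 4 per group) and bars the mean ± SD. For CT027638.1, 2 S- libraries lie at 8489 and 3907 CPM and the other 6 between 422 and 1346 CPM; the groups overlap in every panel but that of CR786571.3.

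The table holds 17 lincRNA rows whose symbol is on a list of well-known long noncoding RNAs or starts with linc, and 3 of them reached 10 counts. Beside malat1, these were oip5-as1 and CR356236.1. Oip5-as1, known in zebrafish as cyrano, has a conserved site that pairs with miR-7. It had 1, 2, 1 and 0 counts in S+ and 0, 1, 7 and 0 in S-, so 7 of its 12 counts came from S- 3. CR356236.1 is named linc-mir30e-2, after the microRNA gene mir-30e-2. It had 1, 3, 3 and 3 counts in S+ and 0, 5, 1 and 6 in S-, while dre-mir-30e-2 itself had 27445 to 40177 counts in S+ and 29042 to 45967 in S-. The fragments counted for the lincRNA were thus 22 in all against 288321 for the microRNA gene. Another name with a known role was found outside that list and after the values had been seen. CR388184.1 is paired with lnc.veal2, a lincRNA that in zebrafish is needed for vascular integrity. It had 2, 4, 5 and 5 counts in S+ and 5, 2, 5 and 4 in S-.

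CU467822.2 (ENSDARG00000101584, si:ch211-132d3.4) is linked to a microRNA by position. In the RefSeq annotation of assembly GRCz12tu its gene overlaps mir9-6, a gene of the neural progenitor microRNA miR-9. It had 3, 9, 14 and 13 counts in S+ and 8, 11, 11 and 3 in S-, while dre-mir-9-6 had 1453 to 2073 counts in S+ and 882 to 1973 in S-. The mean level of the lincRNA was 2.35 ± 1.27 CPM in S+ and 2.08 ± 0.817 CPM in S- (SD, n = 4 each), with a fitted log2 fold change of -0.0030 (standard error 0.582) whose sign changed with the test and the scaling used. Reads from where such genes overlap cannot be assigned with certainty. Of the 6 lincRNA genes that could be matched to RefSeq by symbol, 5 are noncoding there. Among these, BX901907.4 and BX936337.1 each overlap a protein-coding gene in that annotation. From which gene their fragments came was not tested. CABZ01088109.1 carries the symbol scaf8 in the gene name table, which in RefSeq is a protein-coding gene, so its biotype differs between the sources.

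Detection was thin beyond the leading genes. Each S+ library had reads for 46 to 51 of the 62 genes and each S- library for 39 to 48. At least 1 count in all 8 libraries was found for 19 genes, while 14 were seen in 4 libraries or fewer. For 7 genes more than 50% of the counts came from a single library, CT027638.1 and oip5-as1 among them. CU633486.1 (si:ch211-105f12.3), named after its values had been seen, was seen in S+ 4 only, with 12 counts. By its mean share of counts a gene was lower in S+ in 21 cases and higher in 41. The library with the highest count was an S+ library for 44 genes and an S- library for 18. Ties between the groups were credited to S+. These counts were not scaled, and library totals in S+ averaged 1.11-fold those in S-. Neither split was counted over all genes, so nothing is read from them. S- 2 or S- 3 alone had the highest count for 6 of the 62 genes. That count too was neither scaled nor made over all genes, and S- 2 and S- 3 are only 2 of the 8 libraries. Nothing is read from it either. No gene had the same counts as another row of the table in all libraries.

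Besides CT027638.1, malat1, BX001023.2 and CU019562.2, the gene that added most to the lower mean share in S+ was BX511111.2 (si:rp71-62i8.3). It had 1, 1, 9 and 10 counts in S+ and 7, 12, 11 and 5 in S-. On the other side stood CR361564.1, FP565451.1, BX470185.1, CR786571.3 and BX005065.1 (si:ch211-163b2.2), the last with 5, 9, 9 and 11 counts in S+ and 5, 0, 3 and 5 in S-. All genes with a higher mean share in S+ added 0.00233 percentage points together, and CT027638.1 alone contributed -0.309.

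The group comparison was fitted across the whole table with limma after the voom transformation, and 10 of the 62 lincRNA genes were among the 651 genes that passed the filter on low counts. None of the 10 was called at an adjusted p below 0.05 with an absolute log2 fold change above 0.58, where 0.307% of all tested genes were. At an unadjusted p below 0.05 there were 2, CT027638.1 and CU019562.2, both lower in S+, where the share of all tested genes was 12.4%. The quasi-likelihood test of edgeR called none of the 10 and DESeq2 called 1, CT027638.1. Of all 651 tested genes, edgeR called 2 and DESeq2 called 30. In each of these tools 2 of the 10 genes had an unadjusted p below 0.05, CT027638.1 and FP565451.1. The second of them was higher in S+, and CU019562.2 was not among them. Over all 651 genes there were 81 such genes in edgeR and 88 in DESeq2. As the group difference chose the class, nothing further is read from these counts. The fitted log2 fold changes ran from -3.10 for CU019562.2 (standard error 1.22) to 1.19 for FP565451.1 (standard error 0.587), with 6 below 0 and 4 above. The value of CU019562.2 depended on the tool, at -1.5 in edgeR and -1.54 in DESeq2. A second fit that kept all genes with a summed count of at least 10 covered all 62. In it 24 lincRNA genes had a log2 fold change below 0 and 38 above, with a median of 0.18, beside 1892 below and 1949 above with a median of 0.02 for all 3841 genes.

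**Figure D4:**
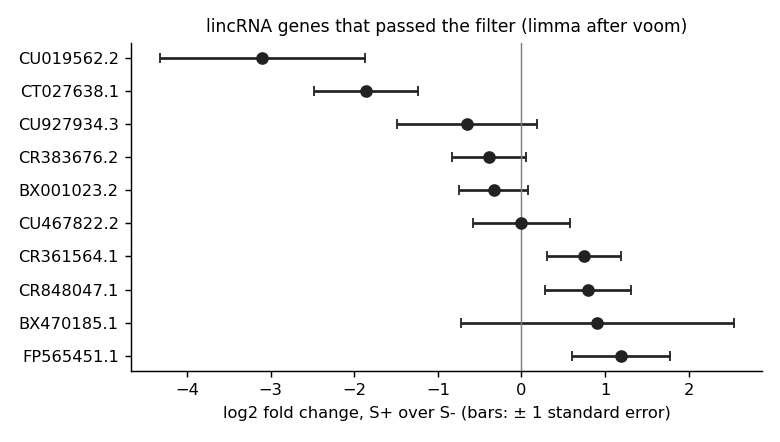
Fitted log2 fold change of S+ over S- for the 10 lincRNA genes that passed the filter, from limma after voom; bars are ± 1 standard error. The values run from -3.10 for CU019562.2 to 1.19 for FP565451.1, CT027638.1 stands at -1.86, and CU019562.2 and BX470185.1 have the widest bars.

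Other RNAs that differed in S- 2 and S- 3 were set beside CT027638.1. Contractile muscle mRNAs were listed after the values had been seen, and 24 of the 27 rows for them had counts. Their summed level was 31.2 to 129 CPM without TMM factors in S+ and 21.0 to 483 in S-, with S- 2 at 483, S- 3 at 224 and S+ 4 next at 129. S- 2 was the highest library for 18 of the 24 rows, and pvalb3, tnnt3a and 1 of 2 rows of actc1a were at 0. The 6 muscle microRNA genes summed to 34526 to 42915 CPM without TMM factors in S+ and 37130 to 43918 in S-, and S- 2 and S- 3 were 1.01-fold and 1.11-fold the median of the other 6 libraries. The small nuclear RNA class held 0.0211% to 0.0390% of counts in S+ and 0.0234% to 0.120% in S-, with its highest value in S- 2 and 0.0415% in S- 3. Against the median of the other 6 libraries, S- 2 and S- 3 were 2.33-fold and 2.94-fold for mitochondrial rRNA. There S+ 3, at 0.0423% of counts, lay above S- 2, at 0.0359%. S- 2 and S- 3 were 2.59-fold and 1.61-fold for the class misc_RNA, where S+ 4 (0.0266%) lay above S- 3 (0.0233%). S- 2 and S- 3 were 1.34-fold and 2.01-fold for rRNA. The small nucleolar RNA class was not raised, at 0.938-fold and 0.994-fold. Protein-coding genes held 0.555% to 0.832% in S+ and 0.505% to 1.05% in S-, with S- 2 and S- 3 highest. Of the counts of that class, 15.9% belonged to zgc:158463, which is an rRNA gene in RefSeq. Without it S+ 3 was the highest library, the share being 0.508% to 0.785% in S+ and 0.435% to 0.767% in S-, with S- 3 at 0.630%. The 7SK RNA gene rn7sk, a nuclear regulator of transcription elongation, was at 49.1 and 25.9 CPM without TMM factors in S- 2 and S- 3 and at 11.3 to 18.3 in the other 6 libraries. The part of these differences in the level of CT027638.1 was not tested.

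Of the classes most like the lincRNAs, antisense genes held 0.841% to 0.937% of counts in S+ and 0.856% to 0.969% in S-, and processed transcripts 0.105% to 0.215% in S+ and 0.112% to 0.146% in S-. S- 2 and S- 3 were 1.03-fold and 1.07-fold the median of the other libraries for the antisense genes, and 0.895-fold and 1.09-fold for the processed transcripts. In both of them 1 gene also held most of the counts, 61.1% among the antisense genes and 57.8% among the processed transcripts, against 92.8% for CT027638.1 among all lincRNA rows.

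**Figure D5:**
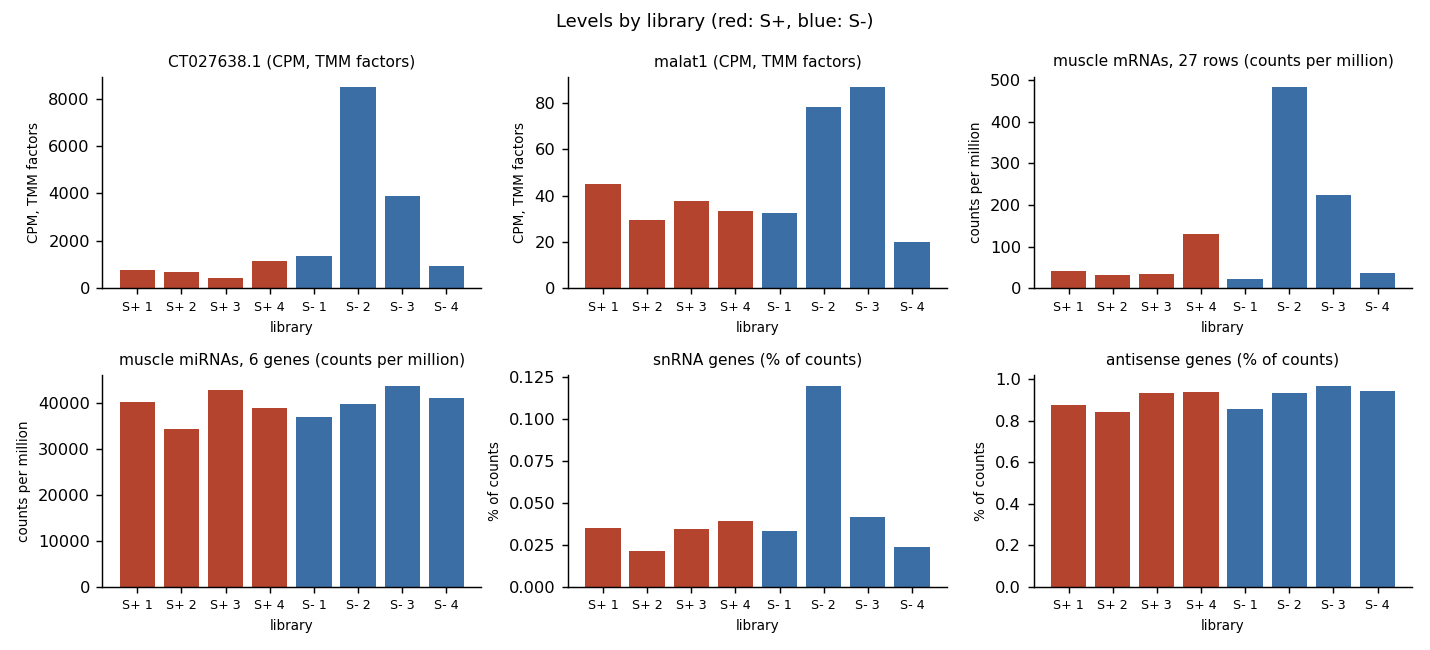
Levels by library (S+ in red, S- in blue) of CT027638.1 and malat1 in CPM with TMM factors, of 27 rows of contractile muscle mRNAs and 6 muscle microRNA genes in CPM without TMM factors, and of the small nuclear RNA and antisense classes in percent of counts. S- 2 and S- 3 are highest for CT027638.1 (8489 and 3907 CPM), malat1 (78.1 and 86.7 CPM) and the muscle mRNAs (483 and 224 CPM without TMM factors), whereas the antisense share stays between 0.841% and 0.969%.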

How the data were processed

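Small RNA libraries of 8 larval pools were analysed, and groups and replicate numbers come from the sample titles. The authors trimmed reads with Trim Galore 0.6.6, mapped them to GRCz11 with STAR 2.7.8a and estimated counts per gene with RSEM 1.3.0; the deposited estimated counts are whole numbers without normalization, and rounding changed none. For these small RNA libraries the methods describe a stranded mRNA preparation with the KAPA RNA HyperPrep Kit with RiboErase. The adaptors carried unique molecular identifiers, but no deduplication is described. The intervals treat each count as independent and cover counting error only, so they may be too narrow. Reads with several possible genes are split by RSEM, and it was run with default parameters, which do not use strand.

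The whole table was fitted with limma 3.58.1 after voom (R 4.3.3), with TMM factors and filterByExpr (minimum count 10) of edgeR 4.0.16 and Benjamini-Hochberg adjustment over the 651 genes tested. CPM use the TMM factors, and shares use all counts. DESeq2 1.42.0 and other settings were alternatives. The fit was tested on simulated counts. Members and lists were chosen with earlier results of these data known. Named genes are the 10 with the highest counts, the first 3 of each library, the 5 that add most to the share difference in each direction, those at an unadjusted p below 0.05, and listed symbols. CR388184.1, CU633486.1, CABZ01088109.1, CU927934.3, BX901907.4 and BX936337.1 fall outside this rule and were named after their values had been seen. The gene name table covered 44 of the 62 lincRNA genes and RefSeq (assembly GRCz12tu) 6. Separate crossings were replicates. The fathers of S+ and S- were kept in separate tanks, and only the first experimental run was sequenced. Effects of stress and of tank therefore cannot be told apart. RefSeq served for names and neighbouring genes only.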

Additional observations from a re-analysis of the deposited data

Results flagged for a closer look

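Among 32 groups of 4 libraries examined, the highest or lowest library stood apart from the rest by more than Dixon's 95% limit in 4. Chance flags about 1 in 20 if values are normally distributed, which was not tested. The 61 lincRNA genes other than CT027638.1 held 0.00984% of counts in S- 4, below the 0.0165% to 0.0173% of the other S- libraries. CR361564.1 was at 17.5 CPM in S+ 4, above 5.39 to 7.44 CPM in the other S+ libraries. CU019562.2 was at 8.16 CPM in S+ 2, and the other S+ libraries reached at most 0.962 CPM. Oip5-as1 was at 1.78 CPM in S- 3, on 7 counts, and at most 0.221 CPM in the other S- libraries. CT027638.1 was not among the 4, with 8489 CPM in S- 2 and 3907 CPM in S- 3. The rule sets the gap to the nearest library against the range, so 2 raised libraries of 4 can mask each other. Nothing is therefore read from the missing flag.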

How the results depend on the processing

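The difference in mean lincRNA share stayed negative, at -0.310 percentage points with all libraries, under every alternative run but the one without the 5 genes of highest count (0.00144). It was -0.00139 without CT027638.1, -8.44 as a percentage of counts outside miRNA genes, -0.410 to -0.140 when single libraries were dropped (smallest without S- 2), and -0.0331 with both S- replicates 2 and 3 left out, an alternative chosen after seeing the data. The count of called lincRNA genes was 0 of 10, and 0 in each of the fits that left out 1 library. DESeq2 gave 1 of 10, no filter on low counts gave 2 of 62, and an unadjusted p below 0.05 gave 2 of 10. Without the filter, genes down to 1 count entered the fit, and the standard error of CT027638.1 was 0.170 against 0.627 with it. The 2 calls without the filter, CT027638.1 and CU019562.2, are therefore not taken as stronger results. Over all genes 2 of 651 were called. Of the same 651, DESeq2 gave 30, library size only 1, and DESeq2 size factors 0 (79 at an unadjusted p below 0.05). An unadjusted p below 0.05 gave 81 of 651, and no filter gave 79 of 18338. Leaving out 1 library gave 0 to 3, with 671 to 720 genes tested. Leaving out both S- replicates 2 and 3 gave 17 of 781. With the replicate block 9 genes were called, none of them a lincRNA gene; same-numbered libraries are separate crossings, their deviations correlated at 0.105, -0.118, 0.218 and 0.058, and 2 of the 4 S+ libraries correlated best with their own number. Of 158 values of the 10 fitted lincRNA genes under the alternatives, 142 kept their direction and call, 3 gained a call and 13 changed sign. CU467822.2 accounts for 9 of the 13, with 0.15 under DESeq2 and under edgeR, 0.00364 with library size only, 0.074 with the replicate block, 0.35 with both S- replicates 2 and 3 left out, and -0.27 to 0.40 in the 7 fits without 1 library that kept it. CU019562.2 was at -1.5 in edgeR, -1.54 in DESeq2 and -1.73 with the replicate block, against -3.10 in limma. BX470185.1 was at -0.22 and malat1 (CR383676.2) at 0.44 with both S- replicates 2 and 3 left out. With 1 library left out, BX470185.1 ran from -0.55 to 2.27 (lowest without S- 2) and CU927934.3, another of the 10 fitted genes, from -1.04 to 0.36 (7 fits, highest without S+ 3; without S+ 1 it did not pass the filter). What underlies the sign changes was not tested. At these depths 3 counts correspond to 0.607 to 0.859 CPM without TMM factors, the level under which a gene could go unseen in a library.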

Other observations

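The gene zgc:158463, taken up after its values had been seen, is protein coding in the deposited table and an rRNA gene in RefSeq (assembly GRCz12tu). It had 2325, 2314, 2130 and 2467 counts in the S+ libraries and 3522, 12124, 9621 and 2481 in the S- libraries. As for CT027638.1, S- 2 and S- 3 were the highest libraries, at 4.40-fold and 4.14-fold the median of the other 6. The RNase P RNA gene rpph1, which encodes the RNA part of the enzyme that trims tRNA precursors, had 13, 7, 19 and 29 counts in S+ and 19, 148, 28 and 15 in S-. S- 2 and S- 3 were 8.10-fold and 1.82-fold the median of the other 6 libraries, and S+ 4 lay above S- 3.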
